A study of Mus musculus with 12 samples.

Results

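Genes of macrophage lineage and of the TREM2 receptor, 10 of the 32544 genes in the deposited table, were followed through bone marrow-derived macrophages (BMDMs) and 3T3 fibroblasts. They were taken by symbol. Spi1, Csf1r, Adgre1, Cd68, Itgam, Fcgr1, Mertk, Trem2, Tyrobp and Ptprc all had a row, and all 10 passed the filter on low counts, which kept 14285 genes. RNA was sequenced from BMDMs 24 h after seeding, 3 libraries labelled WT and 3 labelled PHD2cko, and from 3T3, a mouse fibroblast line, after 72 h in medium conditioned by BMDMs with either label, again 3 libraries each. The PHD2cko mice carried a conditional knockout of PHD2, the oxygen-sensing prolyl hydroxylase, driven by Cre from the lysozyme M promoter, on a C57Bl6/J LDL receptor knockout background. The WT mice carried the same Cre and the same LDL receptor deletion, so both are shared by all BMDM groups and by the source of both media. This Cre is also active in other myeloid cells such as neutrophils. The BMDMs had been differentiated in L929-conditioned medium, the source of macrophage colony-stimulating factor, and the medium given to the serum-starved 3T3 cells held it too. The oxygen condition of these cultures, the age of the mice and whether libraries came from separate mice were not given in the sources used here, so p-values measure the spread between these samples, which may be technical.

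Macrophage identity rests on the transcription factor PU.1, encoded by Spi1, which opens myeloid enhancers and drives the gene of the CSF1 receptor, the growth factor receptor on which macrophages depend. CD45 (Ptprc) is a phosphatase of all nucleated blood cells, CD11b (Itgam) an integrin of myeloid cells, and F4/80 (Adgre1), CD68, the high-affinity Fc receptor CD64 (Fcgr1) and the apoptotic-cell receptor MerTK serve as macrophage markers. TREM2 is a lipid-binding receptor that signals through the adaptor DAP12 (Tyrobp), and TREM2-high macrophages are the lipid-laden macrophages of atherosclerotic plaque.

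Because Spi1 is itself one of the genes, the bases just upstream of 5 of the others are shown, as RefSeq gives their start on GRCm38.p6. Capitals mark the core of the PU.1 motif, GAGGAA, on either strand. Trem2 and Mertk were the members with the highest share of the BMDM level in fibroblasts in WT medium, Itgam and Fcgr1 had a match in these 120 bases, and Cd68 is shown as a gene without one there. The window of neither Ptprc promoter held a match. Each line gives 120 bases that end at the base before the start, on the strand of the gene: chr17:48346281-48346400 for Trem2 (plus), chr7:128062520-128062639 for Itgam (plus), chr3:96293970-96294089 for Fcgr1 (minus), chr11:69666171-69666290 for Cd68 (minus) and chr2:128698795-128698914 for Mertk (plus).
Trem2: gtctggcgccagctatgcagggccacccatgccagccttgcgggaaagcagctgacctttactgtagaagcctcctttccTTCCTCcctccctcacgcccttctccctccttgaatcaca
Itgam: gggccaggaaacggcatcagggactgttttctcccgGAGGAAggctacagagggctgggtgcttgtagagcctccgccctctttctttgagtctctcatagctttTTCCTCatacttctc
Fcgr1: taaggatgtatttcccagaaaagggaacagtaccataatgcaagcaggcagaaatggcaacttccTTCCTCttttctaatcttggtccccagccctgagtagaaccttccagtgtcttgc
Cd68: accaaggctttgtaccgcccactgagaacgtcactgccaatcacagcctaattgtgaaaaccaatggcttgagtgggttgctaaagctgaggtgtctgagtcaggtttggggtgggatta
Mertk: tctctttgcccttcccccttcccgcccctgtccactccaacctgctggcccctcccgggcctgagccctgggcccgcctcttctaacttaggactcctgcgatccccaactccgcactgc
Promoters were at hand for 6 of the 10 genes. Within 250 bases upstream, the core was found at Trem2, Itgam, Fcgr1, Cd68 and 1 of the 2 Ptprc promoters and not at Mertk. Of 32851 mouse promoters of that length, 23.25% held it. A match of these letters does not show binding.

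The libraries held 15516465 to 25199770 counts. Egln1, which encodes PHD2, was higher in the libraries labelled PHD2cko, at 1134, 1000 and 1364 counts against 860, 904 and 913 in WT (log2 fold change 0.33, adjusted p = 0.00203, edgeR). The table holds no values per exon, so a deleted part of the gene was not checked, and every direction below is that of the labels. Summed over 20 macrophage markers that are none of the 10 genes, BMDMs stood at 34299 to 39888 counts per 1e6 counts (CPM, over the total count). The 12 fibroblast markers stood at 2.97 to 7.73 CPM there and at 27246 to 33676 CPM in the 3T3 libraries. Markers of neutrophils, dendritic cells, T and NK cells and mast cells each summed to at most 4.73 CPM in every BMDM library, with 4 of 9 neutrophil genes at 0 counts in all WT libraries. The 5 monocyte markers came to 466 to 497 CPM in WT and 321 to 333 CPM in the libraries labelled PHD2cko, led by Ccr2, the chemokine receptor of inflammatory monocytes (log2 fold change -0.58, adjusted p = 8.0e-04, edgeR). The 7 B and plasma cell markers came to 196 to 202 CPM in WT and 160 to 174 CPM under the PHD2cko label. Of the 4 tested, Ighm, which carries nearly all of the sum, was lower (log2 fold change -0.28, adjusted p = 0.0434, edgeR). Igkc, named after its values were seen like Cd79b, was higher (adjusted p = 0.00572, edgeR), from 0 counts in WT to 0.950 ± 0.255 CPM (SD, n = 3), and Cd79b stood at 2.10 and 3.50 CPM without passing (adjusted p = 0.110). The 7 osteoclast markers came to 24.6 to 29.1 and 31.7 to 32.6 CPM, with Mmp9 (2.16) and Dcstamp (0.93) past the threshold. The part of these cells in the BMDM results was not tested.

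All 10 genes were higher in WT BMDMs than in 3T3 cells in WT medium, where 40.4% of all genes tested were. Adgre1 differed most, by 13.56 on the log2 scale, and Tyrobp (12.32), Spi1 (12.10), Itgam (11.22), Csf1r (10.97), Ptprc (9.74), Fcgr1 (9.15) and Cd68 (8.53) followed. Trem2, at 5.19 (standard error 0.115, adjusted p = 9.7e-14), and Mertk, at 3.44 (standard error 0.0895, adjusted p = 4.2e-13, edgeR), had the smallest differences of the 10. The median over the 10 was 10.35 and over all genes tested -0.08.

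Within BMDMs the genes covered a wide range of levels. Per kb of the mean annotated coding transcript, Csf1r was highest in WT at 1982 ± 53.1 CPM per kb. Adgre1 (1301 ± 25.8), Tyrobp (1256 ± 19.2) and Cd68 (1143 ± 13.5) followed, then Trem2 at 565 ± 14.4 (SD, n = 3 each). Ptprc (394 ± 12.2), Spi1 (364 ± 7.52) and Itgam (312 ± 5.45) came next, with Fcgr1 at 81.0 ± 3.62 and Mertk at 31.6 ± 1.12 lowest. The nearest neighbours were Adgre1 and Tyrobp, whose libraries ran from 1271 upwards and up to 1269 CPM per kb. The order at the top depended on the length used: with the longest transcript, Tyrobp came first at 1222 CPM per kb, before Cd68 (1040 ± 12.3) and Csf1r (1029 ± 27.6). Trem2 kept rank 5 and Fcgr1 and Mertk ranks 9 and 10 with both lengths. For Itgam, 68.33% of the 31-base words of its transcripts also occur in another annotated gene, mostly in a read-through transcript that has no row in the table, and for Csf1r 14.95% do, mostly in Hmgxb3 on the opposite strand. The values of these 2 genes are uncertain to that extent.

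**Figure D1:**
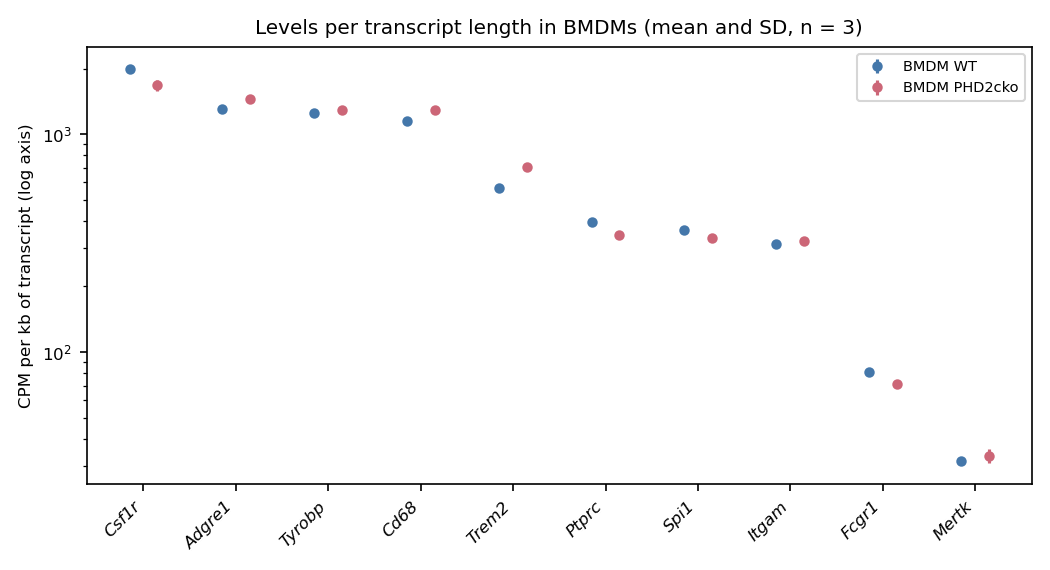
Mean level per kb of transcript (log axis, CPM per kb) of the 10 genes in WT BMDMs and in BMDMs labelled PHD2cko, with SD bars over 3 libraries, ordered by the WT level. The values span from 1982 CPM per kb for Csf1r to 31.6 for Mertk in WT, and both labels lie close together for every gene.

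Whether the PHD2cko label went with a change of lineage genes was asked in BMDMs. None of the 10 genes passed the threshold in the model of all 12 libraries, against 6.73% of all genes tested in either direction, and 1 of 10, Trem2, had an unadjusted p under 0.05, as did 2721 of the 14285 genes tested. This model takes 1 estimate of the spread per gene from all groups, and the 3 libraries of PHD2cko medium lay far apart for 8 of the 10 genes. With the 6 BMDM libraries alone, where 9.79% of genes tested were higher and 10.8% lower, 3 of the 10 genes were higher and 4 lower, none by more than 1.25-fold. With the 9 libraries other than those of PHD2cko medium, 1 was higher and 2 were lower, where 3.46% and 4.19% of genes tested were. DESeq2 called 1 of the 10 higher and none lower, where it called 3.9% of genes tested higher and 4.46% lower, and limma-voom did the same, where it called 3.48% higher and 3.98% lower.

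Trem2 (ENSMUSG00000023992.14, GRCm38 chromosome 17, 48346401 to 48354147, 5 exons) stood at 588, 616 and 614 CPM in WT replicates 1, 2 and 3, here and below over the TMM effective library size. In the libraries labelled PHD2cko it stood at 763, 761 and 748 CPM. All libraries with that label lay above all WT libraries, and the groups were 1.25-fold apart (log2 fold change 0.32 with a standard error of 0.0930, adjusted p = 0.0616 over 12 libraries). DESeq2 (adjusted p = 0.00656), limma-voom (adjusted p = 0.0221) and edgeR on the 6 BMDM libraries (standard error 0.0315, adjusted p = 4.0e-06) put the same difference past the threshold. The adaptor gene Tyrobp (ENSMUSG00000030579.10, chromosome 7, 30413760 to 30417585) stood at 734, 716 and 737 CPM in WT and at 741, 744 and 762 CPM under the PHD2cko label. Its groups did not overlap but differed by a log2 fold change of 0.04 only (standard error 0.258 over 12 libraries and 0.0294 over 6, adjusted p = 0.987 and 0.394, edgeR). Per kb, there were 0.434, 0.465 and 0.452 Trem2 transcripts for each of Tyrobp in WT and 0.557, 0.554 and 0.531 under the PHD2cko label, again without overlap.

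Spi1 (ENSMUSG00000002111.8, chromosome 2, 91082390 to 91115756) stood at 363, 354 and 368 CPM in WT and at 334, 322 and 343 CPM in the libraries labelled PHD2cko. The 3 lower values were all those with the PHD2cko label (log2 fold change -0.12, adjusted p = 0.872 over 12 libraries and 0.00595 over 6, edgeR). Csf1r (ENSMUSG00000024621.16, chromosome 18, 61100598 to 61132149), the receptor for CSF1, stood at 4961, 4703 and 4851 CPM in WT and at 3892, 4040.2 and 4363.5 CPM under the PHD2cko label. Again the groups did not overlap (log2 fold change -0.24, adjusted p = 0.772 over 12 libraries and 1.5e-04 over 6, edgeR).

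Among the surface markers, Ptprc (ENSMUSG00000026395.16, chromosome 1, 138062861 to 138175708) stood at 1250, 1238 and 1179 CPM in WT and at 1051, 1065.5 and 1096 CPM under the PHD2cko label (log2 fold change -0.19). Fcgr1 (ENSMUSG00000015947.10, chromosome 3, 96282909 to 96293969) stood at 219, 209 and 201 CPM against 183, 187 and 185 CPM (log2 fold change -0.18). Both were lower in all 3 libraries with the label, and both passed with the 6 BMDM libraries (adjusted p = 5.4e-04 and 0.00113, edgeR) but not over 12 (0.811 and 0.661), while Fcgr1 also passed with the 9 libraries without PHD2cko medium (adjusted p = 0.0346, edgeR). Adgre1 (ENSMUSG00000004730.15, chromosome 17, 57358691 to 57483527) went the other way, at 2116, 2106 and 2040.1 CPM in WT and 2276, 2317 and 2349 CPM under the label (log2 fold change 0.15). Cd68 (ENSMUSG00000018774.13, chromosome 11, 69664213 to 69666153), a glycoprotein of the endolysosome, stood at 1281, 1263 and 1293 CPM in WT and at 1402, 1416 and 1517 CPM under the label (log2 fold change 0.18). These 2 genes were higher without overlap and passed with the 6 libraries alone (adjusted p = 0.00111 and 0.00131, edgeR, against 0.882 and 0.831 over 12).

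Itgam (ENSMUSG00000030786.18, chromosome 7, 128062640 to 128118491) and Mertk (ENSMUSG00000014361.5, chromosome 2, 128698956 to 128802894) overlapped between the labels. Itgam stood at 1283, 1295 and 1252 CPM in WT and at 1328, 1289 and 1340.5 CPM under the label, and passed in neither fit (log2 fold change 0.05, adjusted p = 0.987 and 0.300, edgeR). Mertk stood at 138, 139.8 and 131 CPM in WT and at 132, 149 and 149.5 CPM under the label (log2 fold change 0.08, adjusted p = 0.665 and 0.256, edgeR). For 8 of the 10 genes the libraries of the labels did not overlap, 4 higher and 4 lower, where 31.9% of all genes tested did not. With each BMDM library left out of the 6 in turn, the same 7 genes passed in all 6 fits, and Mertk passed in 1. The standard errors of the 12-library model were 1.66 times as large as those of the 6 for Mertk, 2.96 times for Trem2 and 5.19 to 11.7 times for the other 8 genes.

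**Figure D2:**
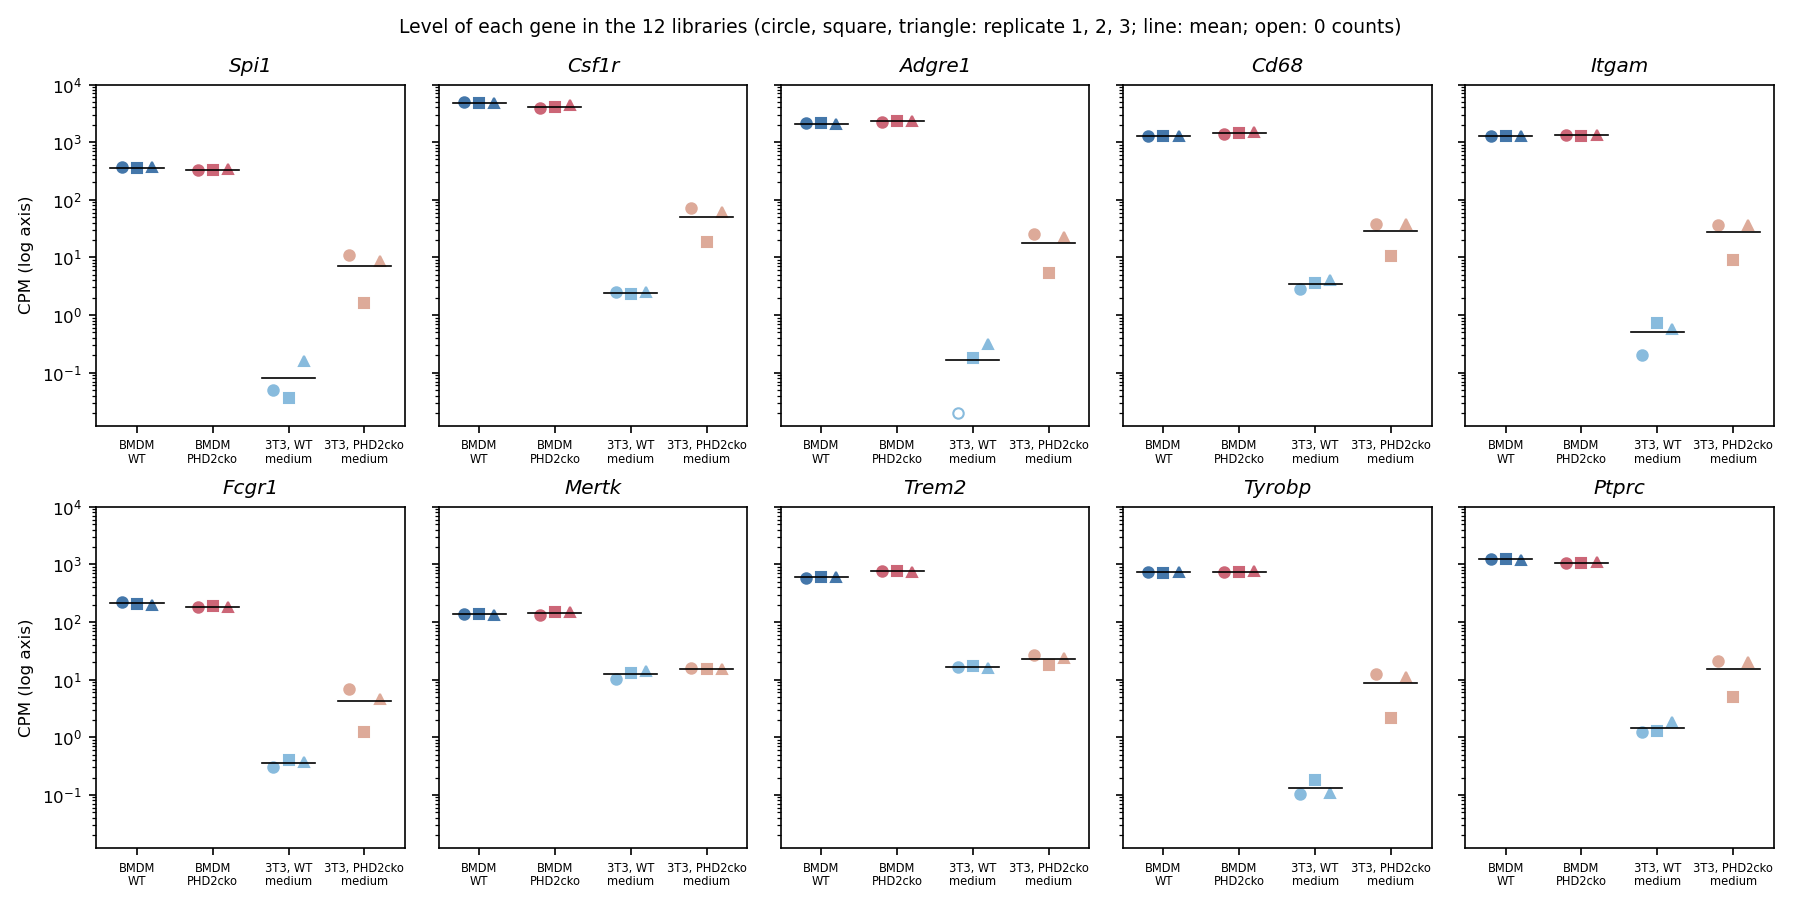
Level of each of the 10 genes (CPM over the TMM effective library size, log axis) in the 12 libraries, with a line at each group's mean and an open symbol for a library with 0 counts. The BMDM libraries lie close together, whereas in PHD2cko medium replicate 2 (square) lies below replicates 1 and 3 for 9 of the 10 genes, Mertk being the exception.

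**Figure D3:**
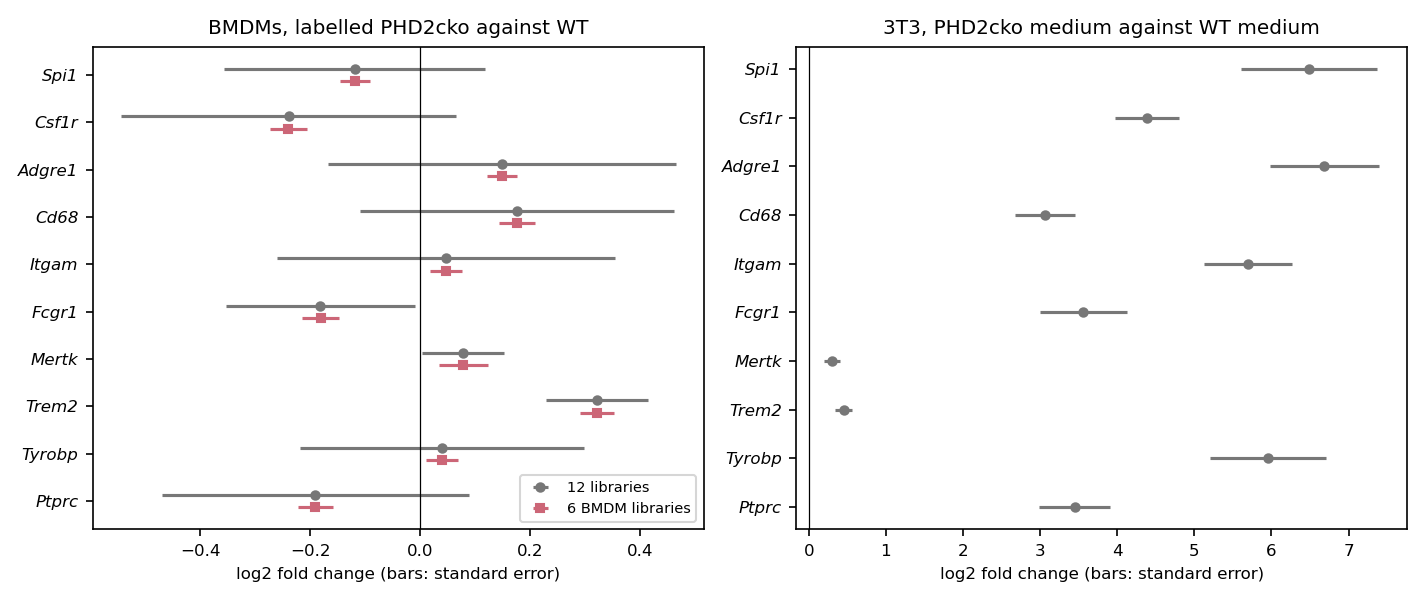
Log2 fold change of each gene with its standard error, in BMDMs by the 12-library model (circles) and the 6 BMDM libraries alone (squares), and in 3T3 cells by the 12-library model. In BMDMs the estimates of both fits coincide and the bars differ, and in 3T3 cells 8 genes lie between 3.07 and 6.69 while Trem2 lies at 0.45 and Mertk at 0.30.

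The genes around these members in the same pathways were counted in the 12-library model, where 6.73% of all genes tested passed in either direction. With the 6 BMDM libraries alone, 9.79% of all genes tested were higher and 10.8% lower. These shares apply to every list in this and the next paragraph, and a single call among 12 genes is near the first of them. Of 12 other lineage transcription factors, none was higher and 1 was lower, Klf4, a factor of monocyte differentiation, from 36.7 ± 1.76 to 22.9 ± 1.42 CPM (log2 fold change -0.67, adjusted p = 2.5e-05, edgeR; SD, n = 3 each). None of 7 tested genes of growth factor receptors and ligands passed, nor did any of 9 tested TREM family members, DAP12 partners and sheddases, nor either of the 2 lipoprotein ligands of TREM2 that were tested. With the 6 BMDM libraries alone, 1 lineage factor was higher and 5 were lower, 1 growth factor receptor or ligand was higher and 1 lower, 3 of the TREM family list were lower (Treml2, the DAP12-coupled lectin gene Clec5a and the sheddase gene Adam17), and the 1 lipoprotein ligand tested there was higher. Of 12 genes that signal downstream of DAP12, 1 passed: the Src-family kinase Fgr fell from 40.1 ± 2.51 to 28.4 ± 0.572 CPM (log2 fold change -0.50). With the 6 BMDM libraries alone, 1 gene of that list was higher and 7 were lower, with a median log2 fold change of -0.11. Among 7 tested Fc receptors and beta2 integrins, the integrin gene Itgal fell by 0.97 on the log2 scale, from 44.1 ± 0.343 to 22.5 ± 0.311 CPM, and Itgax (CD11c) rose by 0.54. With the 6 BMDM libraries alone, 1 of the 7 was higher and 2 were lower, Fcgr2b, the inhibitory Fc receptor gene, being the second lower one (log2 fold change -0.40, adjusted p = 4.0e-06, edgeR). Without any 1 of the 6 BMDM libraries the Itgax difference stayed at 0.50 to 0.57 but did not pass (adjusted p up to 0.134), and with the 6 BMDM libraries alone it passed (adjusted p = 1.7e-07, edgeR).

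Of 10 tested receptors and bridging proteins of apoptotic cell uptake, the class to which MerTK belongs, 2 were higher and 1 was lower. The lipid scavenger receptor gene Cd36 rose from 155 ± 12.1 to 399 ± 18.9 CPM (log2 fold change 1.37, adjusted p = 0.00203, edgeR). Mfge8, a bridging protein, rose by 0.36, and Axl, the sister receptor of MerTK, fell from 330.4 ± 12.4 to 189.5 ± 7.84 CPM (log2 fold change -0.80, adjusted p = 3.9e-06, edgeR). Mertk itself did not pass. With the 6 BMDM libraries alone, 3 of 9 tested uptake genes were higher and 3 lower. Of 14 genes that mark TREM2-high macrophages, 3 rose and none fell: Mmp12, a macrophage elastase (log2 fold change 0.72), Lpl, lipoprotein lipase (0.46), and Plin2, a lipid droplet coat protein (0.45). Without any 1 of the 6 BMDM libraries the Mmp12 difference stayed at 0.69 to 0.76 but did not pass (adjusted p up to 0.102), and with the 6 BMDM libraries alone it passed (adjusted p = 9.3e-09, edgeR). With the 6 BMDM libraries alone, 8 of the 14 were higher and none lower, with a median log2 fold change of 0.09 over the list and 0.00479 over all genes tested. Of the 20 other macrophage markers none passed in the 12-library model, and 4 were higher and 9 lower with the 6 libraries.

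In fibroblasts in WT medium, 8 of the 10 genes had at most 98 counts in any library. Spi1 had 1, 1 and 3 counts in replicates 1, 2 and 3, Tyrobp 2, 5 and 2, Adgre1 0, 5 and 6, Fcgr1 6, 11 and 7, and Itgam 4, 20 and 11. Ptprc (24, 35 and 35 counts), Csf1r (49, 63 and 47) and Cd68 (55, 98 and 76) had more. None of these 8 exceeded 0.380% of its level in WT BMDMs in any library, and 3 counts, the limit that a count of 0 allows, came to at most 0.173 CPM in these libraries (over the total count, counting error only). Csf1r overlaps Hmgxb3, which had 737 to 1295 counts in 3T3 libraries, and reads of the opposite strand could not be separated here.

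Trem2 and Mertk differed from the other 8. Trem2 had 331, 470 and 299 counts, which was 3.32% (exact Poisson 95% interval 2.97 to 3.70), 3.41% (3.11 to 3.73) and 3.15% (2.80 to 3.53) of the WT BMDM level. Mertk had 202, 365 and 266 counts, or 9.03% (7.82 to 10.4), 11.8% (10.6 to 13.1) and 12.5% (11.0 to 14.1). The 20 other macrophage markers stood at 0.0617%, 0.0689% and 0.0692% of their BMDM level in these libraries. That share would account for 6.15, 9.49 and 6.56 counts of Trem2 and for 1.38, 2.13 and 1.47 counts of Mertk.

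In PHD2cko medium, 9 of the 10 genes were higher than in WT medium, where 8.93% of all genes tested were. The median log2 fold change was 3.97 over the 10 genes and -0.00461 over all genes tested. Every library of PHD2cko medium lay above every library of WT medium for all 10 genes, but the libraries of PHD2cko medium differed among themselves. Spi1 had 218, 28 and 182 counts in replicates 1, 2 and 3 (log2 fold change 6.48 with a standard error of 0.880, adjusted p = 4.3e-04, edgeR), and the ratio of summed counts to WT medium was 101-fold, with an exact interval of 43.1 to 314 that covers counting error only. Csf1r had 1398, 319 and 1260 counts (log2 fold change 4.39, adjusted p = 6.4e-05, edgeR). In both genes replicate 2 was far below replicates 1 and 3, at depths of 15516465 to 18510894 counts.

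Tyrobp had 246, 38 and 232 counts in PHD2cko medium, a ratio of summed counts of 67.9-fold (35.5 to 149). Adgre1 had 488, 91 and 468 counts, a ratio of 113-fold (62.7 to 226). Itgam had 717, 156 and 757 counts, a ratio of 55.1-fold (39.5 to 79.4). The ratios of these 3 were among the largest of the 10, next to Spi1, with WT medium sums of 9, 11 and 35 counts. Ptprc had 417, 85 and 416 counts (log2 fold change 3.45), Fcgr1 134, 21 and 96 (3.56) and Cd68 748, 181 and 777 (3.07). The low replicate was again replicate 2 in each of these 6 genes.

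Trem2 had 522, 308 and 482 counts in PHD2cko medium, or 26.8, 17.8 and 23.3 CPM against 16.8, 17.0 and 15.8 CPM in WT medium. It rose 1.37-fold (log2 fold change 0.45 with a standard error of 0.111, adjusted p = 0.0155, edgeR). The call rested on single libraries: without PHD2cko medium replicate 1 the log2 fold change was 0.32 (adjusted p = 0.0661), without replicate 3 it was 0.43 (adjusted p = 0.0625), and with the 6 fibroblast libraries alone 0.46 (adjusted p = 0.0974, edgeR). Mertk had 307, 266 and 315 counts, or 15.8, 15.4 and 15.3 CPM against 10.3, 13.2 and 14.1 CPM. It did not pass (log2 fold change 0.30 with a standard error of 0.100, adjusted p = 0.0617, edgeR), though DESeq2 (adjusted p = 0.0214), the total count without TMM (adjusted p = 0.0409) and the fit without WT medium replicate 3 (adjusted p = 0.0327) put it past the threshold. With single 3T3 libraries left out, its log2 fold change ran from 0.21 to 0.38. WT medium replicate 1, lowest for Mertk, also differed most from its group over all genes. Its chi-square per degree of freedom was 24.6 and 26.2 against replicates 2 and 3, which differed by 2.34.

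Read as a share of the level in BMDMs labelled PHD2cko, the summed CPM of the 10 genes was 2.65%, 0.851% and 2.38% in PHD2cko medium replicates 1, 2 and 3, or 1.96% ± 0.971 (SD, n = 3). In WT medium the share was 0.322%, 0.370% and 0.377% of the WT BMDM level, or 0.356% ± 0.0303, most of it from Trem2 and Mertk. The 20 other macrophage markers gave 2.56%, 0.580% and 2.30% in PHD2cko medium, so the members and the markers had the same low library. Their part in the result was not tested. Whether the 3T3 libraries held macrophages was not tested either, and in bulk libraries the number of cells of a type and the RNA per cell cannot be told apart.

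**Figure D4:**
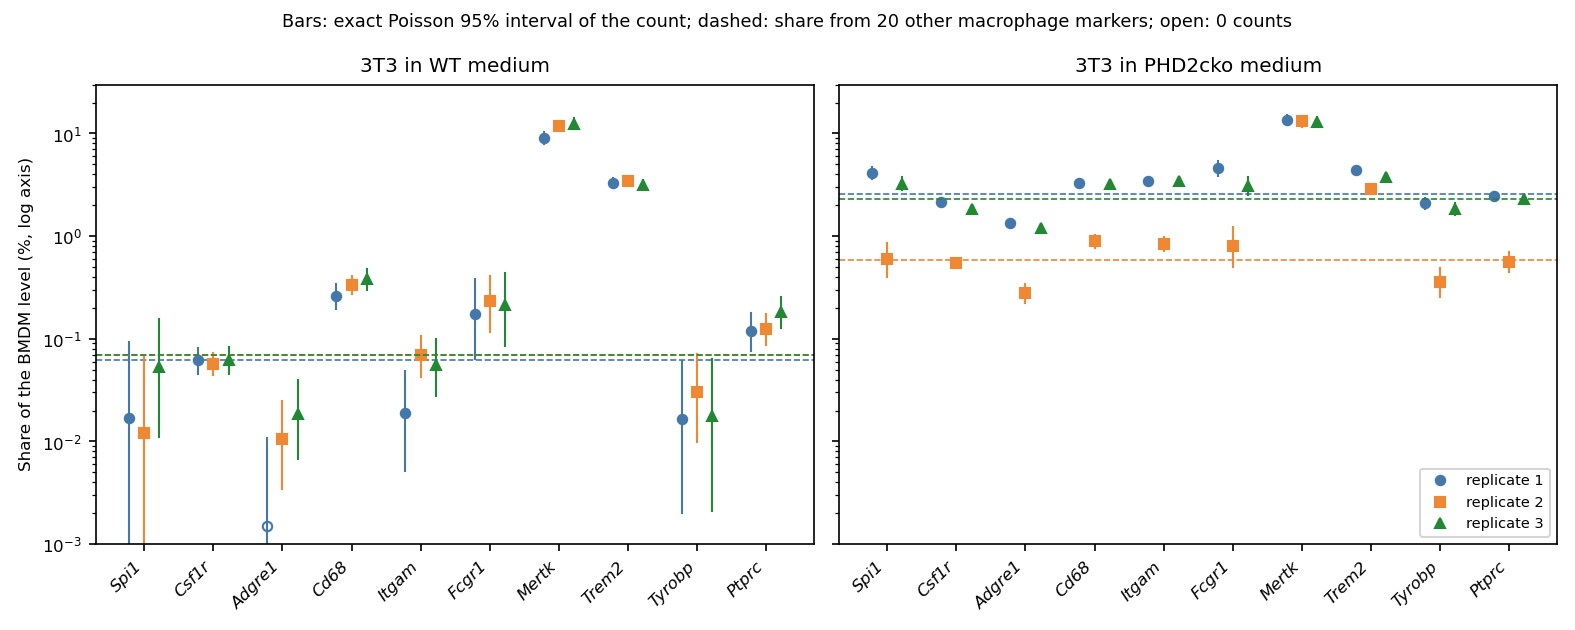
Share of the mean BMDM level of the matching label (percent, log axis) for each gene in each 3T3 library, with exact Poisson 95% intervals and, as dashed lines, the share from the 20 other macrophage markers in the same library. In WT medium Trem2 and Mertk stand above the other 8 genes, and in PHD2cko medium the other 8 lie on both sides of their library's line, with replicate 2 below replicates 1 and 3.

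The 8 genes other than Trem2 and Mertk were not all present in the proportion in which BMDMs hold them. Set against the count that the marker share of the same library gives, Adgre1 was at 0.522, 0.480 and 0.522 of it in replicates 1, 2 and 3, and Tyrobp at 0.812, 0.619 and 0.800. Csf1r was at 0.844, 0.951 and 0.794, and Ptprc at 0.964, 0.969 and 1.00. Cd68 (1.28, 1.53 and 1.39), Itgam (1.35, 1.44 and 1.48), Fcgr1 (1.79, 1.39 and 1.34) and Spi1 (1.62, 1.03 and 1.41) were above it in all 3 libraries, but in replicate 2 the exact Poisson 95% intervals of Spi1 (28 counts, share 0.396 to 0.861%) and of Fcgr1 (21 counts, 0.498 to 1.23%) held the marker share of 0.580%, so these 2 could not be told from it there. The same held for Csf1r in replicate 2 (0.492 to 0.615%) and for Ptprc in all 3 libraries. These sides depended on how the share was taken. The median over the 20 markers was 3.75%, 0.843% and 3.63%, higher than their sum gave, and against it Itgam was below in all 3 libraries (0.919, 0.994 and 0.938). Spi1 (1.11, 0.706 and 0.894), Fcgr1 (1.22, 0.954 and 0.849) and Cd68 (0.875, 1.05 and 0.879) then lay above in 1 library and below in the others. The exact intervals held the median share for Spi1 in all 3 libraries, for Itgam and Fcgr1 in replicates 2 and 3 and for Cd68 in replicate 2. Those values could not be told from it. Csf1r, Adgre1, Tyrobp and Ptprc were below it in every library, with Adgre1 lowest at 0.356, 0.330 and 0.331.

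The excess over the WT medium mean was compared between the libraries of PHD2cko medium as a description, with no error on the ratios. For Trem2, the excess was 12.1, 1.84 and 8.03 CPM (over the total count) in replicates 1, 2 and 3, so that replicate 2 held 0.152 of the excess of replicate 1. The other 8 genes had 0.131 to 0.233 there, and the 20 other markers a median of 0.214 with a range of 0.157 to 0.713. For Mertk, the excess was 4.08, 3.51 and 3.39 CPM, and replicate 2 held 0.860 of the excess of replicate 1. In replicate 3 Mertk held 0.829 of the excess of replicate 1, inside the range of the 20 markers (0.756 to 1.17), and Trem2 0.663, below it. Mertk was thus above Trem2 in both replicates, and Trem2 lay below the markers' range in both. The excess of Mertk was no larger than the range of its WT medium libraries (11.1 to 15.3 CPM), and Mertk did not pass, so its ratios are imprecise. Once the marker share times the BMDM profile had been subtracted from each library, Trem2 was left with 216, 246 and 189 counts in PHD2cko medium and 325, 461 and 292 in WT medium, and its difference turned to -0.47 (adjusted p = 0.0126, edgeR). Mertk was left with 249, 254 and 259 against 201, 363 and 265 counts (log2 fold change 0.13, adjusted p = 0.484, edgeR). The subtracted share was taken as exact, so p-values after subtraction, here and below, leave out its error. The excess of Trem2 was 1.76%, 0.267% and 1.16% of its level in BMDMs labelled PHD2cko, below the subtracted 2.56%, 0.580% and 2.30%. The sign of its difference therefore depends on the share taken.

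**Figure D5:**
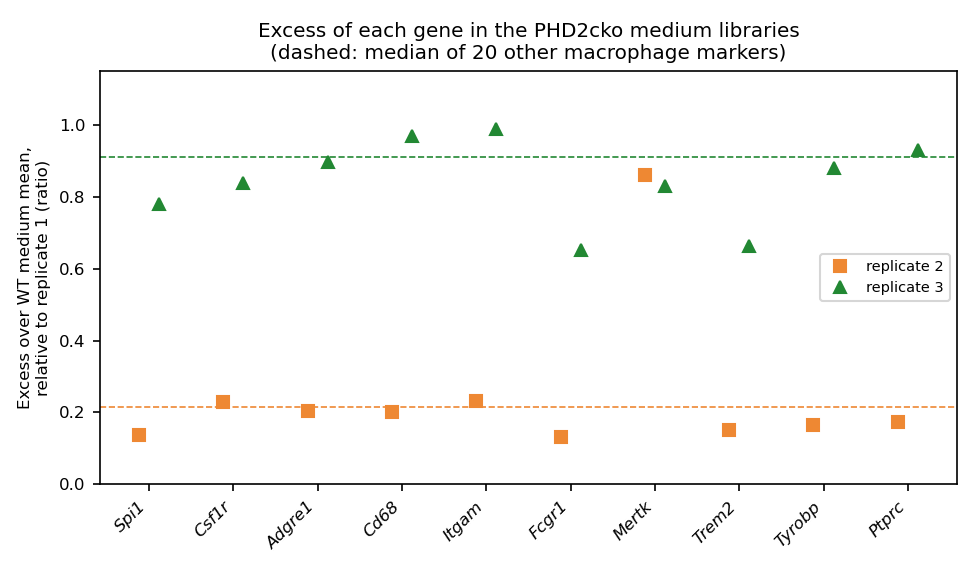
Excess of each gene over its WT medium mean in PHD2cko medium replicates 2 and 3, as a ratio to the excess in replicate 1, with dashed lines at the medians of the 20 other macrophage markers. In replicate 2 Mertk stands at 0.860 and the other 9 genes between 0.131 and 0.233, whereas in replicate 3 Mertk (0.829) lies among the others and Fcgr1 (0.653) and Trem2 (0.663) are lowest.

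After the same subtraction, Csf1r, Adgre1 and Tyrobp were at 0 counts in all 6 fibroblast libraries, a floor of the method. Spi1 (83, 1 and 53 counts in PHD2cko medium), Itgam (184, 48 and 246), Fcgr1 (59, 6 and 24) and Cd68 (164, 63 and 218) were past the threshold. In WT medium Spi1 and Itgam were left with 0 counts in every library, Fcgr1 with 4, 8 and 5 and Cd68 with 42, 78 and 62, so that replicate 2 of PHD2cko medium overlapped WT medium in counts for Fcgr1 and Cd68. By that estimate 4 of the 10 genes were higher and 2, Trem2 and Ptprc, were lower, where 6.74% of all genes tested were higher and 6.48% lower. Ptprc was left with 0, 0 and 1 counts in PHD2cko medium against 12, 16 and 22. With the median share subtracted instead, an alternative added after seeing the data, none of the 10 genes was higher and 3 were lower, namely Trem2 (-1.51), Cd68 (-4.04) and Ptprc (-6.86), where 6.1% of all genes tested were higher and 7% lower. Spi1 was then left with 21, 0 and 0 counts in PHD2cko medium, Fcgr1 with 25, 0 and 0, Cd68 with 0, 9 and 0 and Itgam with 0 in all 3.

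Among the pathway lists in fibroblasts, all 12 genes that signal downstream of DAP12 were higher in PHD2cko medium, with a median log2 fold change of 4.74. Of all genes tested, 8.93% were higher there. Plcg2, the phospholipase activated by TREM2 signalling (6.48), Pik3cg (6.04), the kinase gene Btk (5.90) and Vav1 (5.78) led them, each at 0.0346 to 0.0878 CPM in WT medium and at 2.15 to 5.88 CPM in PHD2cko medium. Of the 20 other macrophage markers, 19 were higher, led by the complement genes C1qa (7.78), C1qb (7.37) and C1qc (7.27). Of 7 tested Fc receptors and beta2 integrins 6 were higher, among them Fcgr3 (6.09), Fcer1g (4.97), Fcgr2b (2.44) and Itgb2 (2.00). Growth factor receptors were higher for 3 of 7 tested genes, the subunits Csf2rb (4.69), Csf2ra (3.99) and Csf2rb2 (2.63). These lists moved in the same libraries as the 10 genes, with replicate 2 lowest in their summed level for the 12 DAP12 genes (23.8 CPM, against up to 96.9 CPM). Markers of 2 other cell types were higher too, those of B and plasma cells with replicate 2 highest and those of osteoclasts with replicate 2 lowest. The 7 B and plasma cell markers summed to 4.06 to 5.53 CPM in WT medium and to 12.5, 14.5 and 13.3 CPM in PHD2cko medium replicates 1, 2 and 3, and of 4 tested only Ighm passed (log2 fold change 1.72, adjusted p = 1.7e-05, edgeR), with Igkc at 0 counts in all 6 libraries. The 7 osteoclast markers summed to 20.4 to 22.05 and to 43.6, 38.7 and 52.5 CPM, with Mmp9, a gelatinase gene, at 9.43 ± 0.864 and 31.2 ± 6.33 CPM (SD, n = 3 each), Acp5 also past the threshold and Calcr at 0 counts. Their part in the fibroblast results was not tested.

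The remaining lists, which hold genes that fibroblasts express and genes near 0 there, were more mixed, beside the 8.93% of all genes tested that were higher. Irf8, Cd36, Clec5a, Abcg1 and Stab1 stood at only 0.0121 to 0.527 CPM in WT medium. Of 12 lineage transcription factors, 6 were higher, among them Irf8 (7.46) and Irf5 (1.53), and Mitf was lower (-0.34). Of 10 tested uptake genes, Cd36 (6.89) and Stab1 (5.40) rose, and Scarb1 (-0.29) and Mfge8 (-0.26) fell. Of 9 tested TREM family members, partners and sheddases, 4 were higher, among them Clec5a, a DAP12-coupled lectin (5.28), Cd300lb (1.08) and the sheddase gene Adam17 (0.22). Adam17 did not pass without WT medium replicate 2 (log2 fold change 0.23, adjusted p = 0.0614), PHD2cko medium replicate 1 (0.22, adjusted p = 0.0731) or replicate 3 (0.18, adjusted p = 0.128). Of 14 genes of TREM2-high macrophages, 6 were higher, led by Abcg1 (5.03), Gpnmb (2.55), Apoe (1.61) and Mmp12 (1.45). Apoe is also 1 of the 2 tested lipoprotein ligands of TREM2, and the other did not pass.

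Not all of these list calls stood once the marker share had been subtracted. Of the named genes, Plcg2, Pik3cg, Btk, Vav1, Fcer1g, Itgb2, Csf2ra, Cd36, Stab1 and Clec5a were still higher. Gpnmb (log2 fold change -10.31, adjusted p = 7.8e-07), Apoe (-8.38, adjusted p = 1.2e-04) and Fcgr2b (-5.57, adjusted p = 0.00194, edgeR) were then lower, with sizes set by the floor at 0 counts. Mmp12 (-1.40), Csf2rb2 (-5.63), Irf8 (3.52), Irf5 (0.12), Cd300lb (-0.22) and Adam17 (0.18) did not pass, and Abcg1, Fcgr3 and Csf2rb gave no value.

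The effect of the label in fibroblasts was also tested against that in BMDMs. For 8 of the 10 genes the effect was higher in fibroblasts, where 7.71% of all genes tested had such a difference. Trem2 (difference of log2 fold changes 0.13, adjusted p = 0.627, edgeR) and Mertk (0.22, adjusted p = 0.294, edgeR) were not among them. The interaction median over the 10 genes was 4.18.

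The genes with a pattern most like that of Trem2 were sought among 8911 genes with at least 10 CPM in BMDMs, by the root mean square difference of log2 CPM (with 0.5 added to CPM) over the 12 libraries after centring each gene. Bmyc was nearest (0.0960), followed by Il10rb, an interleukin receptor subunit (0.141), Tspan13 (0.145), Eng, the coreceptor endoglin (0.150), and Cacna1d (0.155). At low CPM this measure is set by the added 0.5, and Bmyc stood at 0 CPM in WT medium where Trem2 stood at 16.6 ± 0.666. Of these genes, Il10rb had the level most like it in 3T3 cells in WT medium, at 8.04 CPM. For Csf1r the nearest were Unc93b1 (0.119), Myo1f (0.187), C3ar1 (0.254), Pld4 (0.274) and Fcgr3 (0.281), all at 0.111 to 0.352 CPM in WT medium and 8.51 to 20.5 CPM in PHD2cko medium.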

How the data were processed

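RNA-seq libraries of BMDMs and 3T3 fibroblasts were analysed from the table of estimated counts per gene that the authors deposited, made with kallisto on GRCm38 per the submitters' processing notes, without normalization or filter. How the estimates became whole numbers was not given in the sources used here. Of the columns, 0 could not be mapped to a sample. Genes were kept by filterByExpr (14285 of 32544). Libraries were scaled by TMM and all 12 were fitted in one edgeR 4.0.16 quasi-likelihood model of 4 groups in R 4.3.3. Tests of contrasts were two-sided, p-values were adjusted by Benjamini-Hochberg over every gene kept, and the threshold was 0.05. CPM used for shares and marker sums are over the total count, other CPM over the effective library size. The share of a gene in a 3T3 library is its CPM over the mean of the BMDM libraries of the matching label, with an exact Poisson 95% interval of the count. Intervals and the floor of 3 counts cover counting error only. Lengths, positions and shared 31-base words come from GENCODE annotation of GRCm38, promoters from RefSeq on GRCm38.p6.

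The genes and lists were chosen with earlier results of these data known. All 10 genes were named. Of each list at most 4 genes per comparison were named, those past the threshold with the largest log2 fold change and at least 1 CPM in either group, besides the 5 genes most like Trem2 and most like Csf1r. Genes of lists that did not pass were counted. In simulated data with 200 changed genes, edgeR found 188 with 12 false calls at the depth of the BMDM comparison (14111 genes). At the depth of the 3T3 comparison (14127 genes) it found 188 with 7 false calls. Recovery of differences as small as those of the 10 genes in BMDMs, with their unequal spread between groups, was not tested. Alternatives were DESeq2 1.42.0 size factors or Wald test, limma 3.58.1 with voom, total-count scaling, other filters, the replicate number as a block, the libraries of 1 cell type, marker share subtraction and each library left out in turn.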

Additional observations from a re-analysis of the deposited data

Results flagged for a closer look

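The effect of the PHD2cko label differed between fibroblasts and BMDMs for 8 of the 10 genes, by edgeR's test of the difference itself with adjustment over all genes. The difference of log2 fold changes, fibroblasts minus BMDMs, was 6.60 for Spi1, 6.54 for Adgre1, 5.92 for Tyrobp and 5.65 for Itgam. It was 4.63 for Csf1r, 3.74 for Fcgr1, 3.64 for Ptprc and 2.89 for Cd68. In BMDMs these genes lay within 0.24 of 0 on the log2 scale. In fibroblasts they moved with the 20 other macrophage markers, whose summed level was 24.2 to 27.2 CPM in WT medium and 201 to 888 CPM in PHD2cko medium, and the part of these markers in the difference was not tested. The difference stayed past the threshold for 8 genes with each of the 12 libraries left out in turn.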

How the results depend on the processing

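In BMDMs, where 0 genes of the 10 were called, DESeq2's Wald test and limma-voom called 1 higher each, where they called 3.9% and 3.48% of all genes tested higher. The 6 BMDM libraries alone called 3 higher and 4 lower (9.79% and 10.8% of all genes tested). The 9 libraries without those of PHD2cko medium, a fit added after seeing the data, called 1 higher and 2 lower (3.46% and 4.19% of all genes tested). The last 2 fits leave out the libraries in which the genes varied most. Of the pathway genes, 6 were called higher and 4 lower in BMDMs; limma-voom called 7 lower, and the 6 libraries alone, also added later, 15 higher and 21 lower. In fibroblasts, subtraction of the marker share left 4 of the 10 genes higher and 2 lower, with Trem2 at -0.47 and Ptprc at -4.95 on the log2 scale, a value set by the floor at 0 counts. Csf1r, Adgre1 and Tyrobp gave no value there. With the median share subtracted, added later, 0 were higher and 3 lower, and Trem2 (-1.51), Cd68 (-4.04), Ptprc (-6.86), Itgam (-1.68) and Csf1r (-4.05) reversed, the last 2 short of the threshold; Adgre1 and Tyrobp gave no value. The subtraction, added later for the lists, left 18 pathway genes higher and 9 lower against 39 and 3. The summed share in WT medium moved from 0.356% to 0.295% with TMM sizes and was 0.0666% by the other markers. The median level per kb in WT BMDMs moved from 479.8 to 415 CPM per kb with the longest transcript. Without single libraries, 8 to 10 genes were higher in PHD2cko medium, the mean share there was 1.62% to 2.52%, and 34 to 42 pathway genes were higher. In BMDMs, 4 were higher in each of those fits. With the replicate number as a block, 9 of the 10 genes were higher in PHD2cko medium and 0 were called in BMDMs, and the replicate block changed no member's call. Same-numbered libraries did not deviate together (correlations from -0.0822 to 0.0418). Of the fold changes of single members, 608 values under alternatives kept their call, 15 passed newly, 5 no longer passed and 7 reversed. A value that passed neither in the main fit nor in the alternative counted as kept whatever its sign. Depth limits Spi1, Tyrobp, Adgre1, Fcgr1 and Itgam, at 0 to 20 counts in WT medium.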
